A study of Rattus norvegicus with 10 samples.

Results

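The clock output and stabilizing-loop transcription factors are 9 genes: Dbp, Tef, Hlf, Nfil3, Nr1d1, Nr1d2, Rora, Bhlhe40 and Bhlhe41. They were followed in white adipose tissue of rats on a noodle diet or a control diet. Every probe set annotated with 1 of these symbols and no other was taken, which gave 9 of the 14217 genes with such a probe set and 17 of the 31042 probe sets tested. The genes were selected on the difference between the diets in these same arrays, so that difference is given for them as a description, without a test. An SD over the 10 arrays of 0.01 or less marked a probe set as flat. By that limit 10 of the 17 member probe sets, of 8 genes, varied between rats, and 7 were flat, among them all 4 of Hlf. Of all probe sets tested, 2607, or 8.4%, varied.

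The rats were male and 13 weeks old, and each gave 1 array. The noodle group (animals 1, 4, 7, 10 and 13) had feed that was 30% instant noodle by weight, with 26% of its energy from fat. The control group (animals 2, 5, 8, 11 and 14) is described as having had this diet with the seasonings left out, and no label says whether it still held noodle. Feeding was paired, at roughly 60 g of feed daily for each kg of rat, under a light and dark cycle of 12 h. The length of feeding is given as 30 days in one place and as 4 weeks in another. No source used here gives the strain, the fat depot or the time of day at which tissue was taken. Nothing names a genetic change or a drug in either group.

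The mammalian circadian clock is a transcriptional loop found in most cells, adipocytes included. Bmal1 with Clock or Npas2 drives genes through E-box sequences, and the Per and Cry proteins among its targets repress it in turn. A stabilizing loop joins it, in which the REV-ERB proteins (Nr1d1, Nr1d2) repress and the ROR proteins (Rora) activate through the same element, Bmal1 being a target of both. The PAR bZIP factors Dbp, Tef and Hlf carry the rhythm to output genes through D-box sequences, where Nfil3 competes as a repressor. The DEC proteins (Bhlhe40, Bhlhe41) bind E-boxes and dampen Bmal1-driven transcription.

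The promoters of 8 of the 9 genes were at hand, as 300 bases around a RefSeq start of the gene in the GRCr8 build. They are shown for the motif classes through which these factors are regulated or act, namely the E-box CACGTG, the ROR element core TAGGTCA and the D-box as TTATGTAA or TTACGTAA, each searched on both strands. An E-box was present for 4 of the 8 genes, and 6.42% of all 33469 promoters of this length held one. No ROR element core or D-box was found in the 9 member promoters. Each stretch below is printed 5′ to 3′ on the gene's strand, with the E-box in capitals.
Tef, chr7:115206617-115206646, + strand: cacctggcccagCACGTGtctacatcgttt
Nr1d1, chr10:84229628-84229657, - strand: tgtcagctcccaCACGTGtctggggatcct
Bhlhe40, chr4:143174200-143174299, + strand: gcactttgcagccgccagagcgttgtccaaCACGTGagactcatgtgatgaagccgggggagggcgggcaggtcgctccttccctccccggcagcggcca
Bhlhe41, chr4:180569386-180569415, - strand: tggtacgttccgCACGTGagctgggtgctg
The E-box of Bhlhe41 begins 48 bases before the gene start and those of Tef, Nr1d1 and Bhlhe40 begin 198, 191 and 220 bases before it. For Tef, Nr1d1 and Bhlhe41 the start used is not the outermost one in RefSeq. A stretch of 100 bases holding the E-box overlaps the gene's full extent there, so only 30 bases are printed. The 30 bases were not checked against that extent on their own. For Bhlhe40 the 100 bases lie outside it. Nr1d1 has a pair of promoters in the table and the E-box is in 1 of them. The Dbp, Nfil3, Nr1d2 and Rora windows held no exact CACGTG, which says nothing of sites farther away or of other spelling.

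The motifs of the proteins' own sites were also looked for in the core loop. The ROR element core, which REV-ERB and ROR proteins share, was in the promoter of Bmal1, and 2.63% of all promoters held it. The D-box, the site of the PAR bZIP factors and of Nfil3, was in the promoter of Per2, and 1.01% of all promoters held it. Both are printed the same way, with the motif in capitals. The 100 bases holding the Bmal1 motif overlap the full extent of that gene, so 30 are printed, and those of Per2 do not.
Bmal1, chr1:176766298-176766327, + strand: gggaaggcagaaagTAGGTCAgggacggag
Per2, chr9:99497132-99497231, - strand: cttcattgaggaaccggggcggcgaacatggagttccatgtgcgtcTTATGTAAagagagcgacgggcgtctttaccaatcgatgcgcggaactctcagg
A letter match is a description of the sequence and was not tested for binding.

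The medians of the arrays ran from 6.175 to 6.182 (log2), and pairs of arrays correlated at 0.9933 to 0.9977. The tissue label is white adipose tissue, although the RNA protocol names brain as its source. Median levels were 11.48 over 13 adipocyte markers and 5.59 over 7 brain markers, and Mbp, the brain marker that varied, read from 8.35 to 9.17. Levels of different probe sets are not on a common scale, so these values are given as a description and do not settle the tissue. In the whole table limma called 0 of 31042 probe sets between the diets at an adjusted p of 0.05, so percent called was 0. Before adjustment, 1481 had a p under 0.05, of which 770 were higher and 711 lower in noodle rats. Under quantile normalization that count was 245 (106 higher, 139 lower), and under median centring 246 (95 higher, 151 lower). A share of 0.05 of the probe sets is expected under that limit without any difference, so nothing is read from these counts. The 5 arrays per diet limit the precision of every value. In bulk tissue, fewer cells of a type and less RNA per cell cannot be told apart.

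Among the 10 variable member probe sets, 9 were lower and 1 was higher in the noodle mean, with a median difference of -0.41 on the log2 scale. Over all 2607 variable probe sets, 1445 were lower, 1162 were higher and the median was -0.012. The diets did not overlap in 0 of the 10, where the background of variable probe sets without overlap was 0.959%. The selection of the genes used this contrast, so nothing is read from either count. The rats behind the differences were few and the same in gene after gene. Noodle animals 1, 4 and 7 lay outside the control range in every variable member probe set except that of Rora. Noodle animals 10 and 13 lay within it, save for Bhlhe40 in animal 13.

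**Figure D1:**
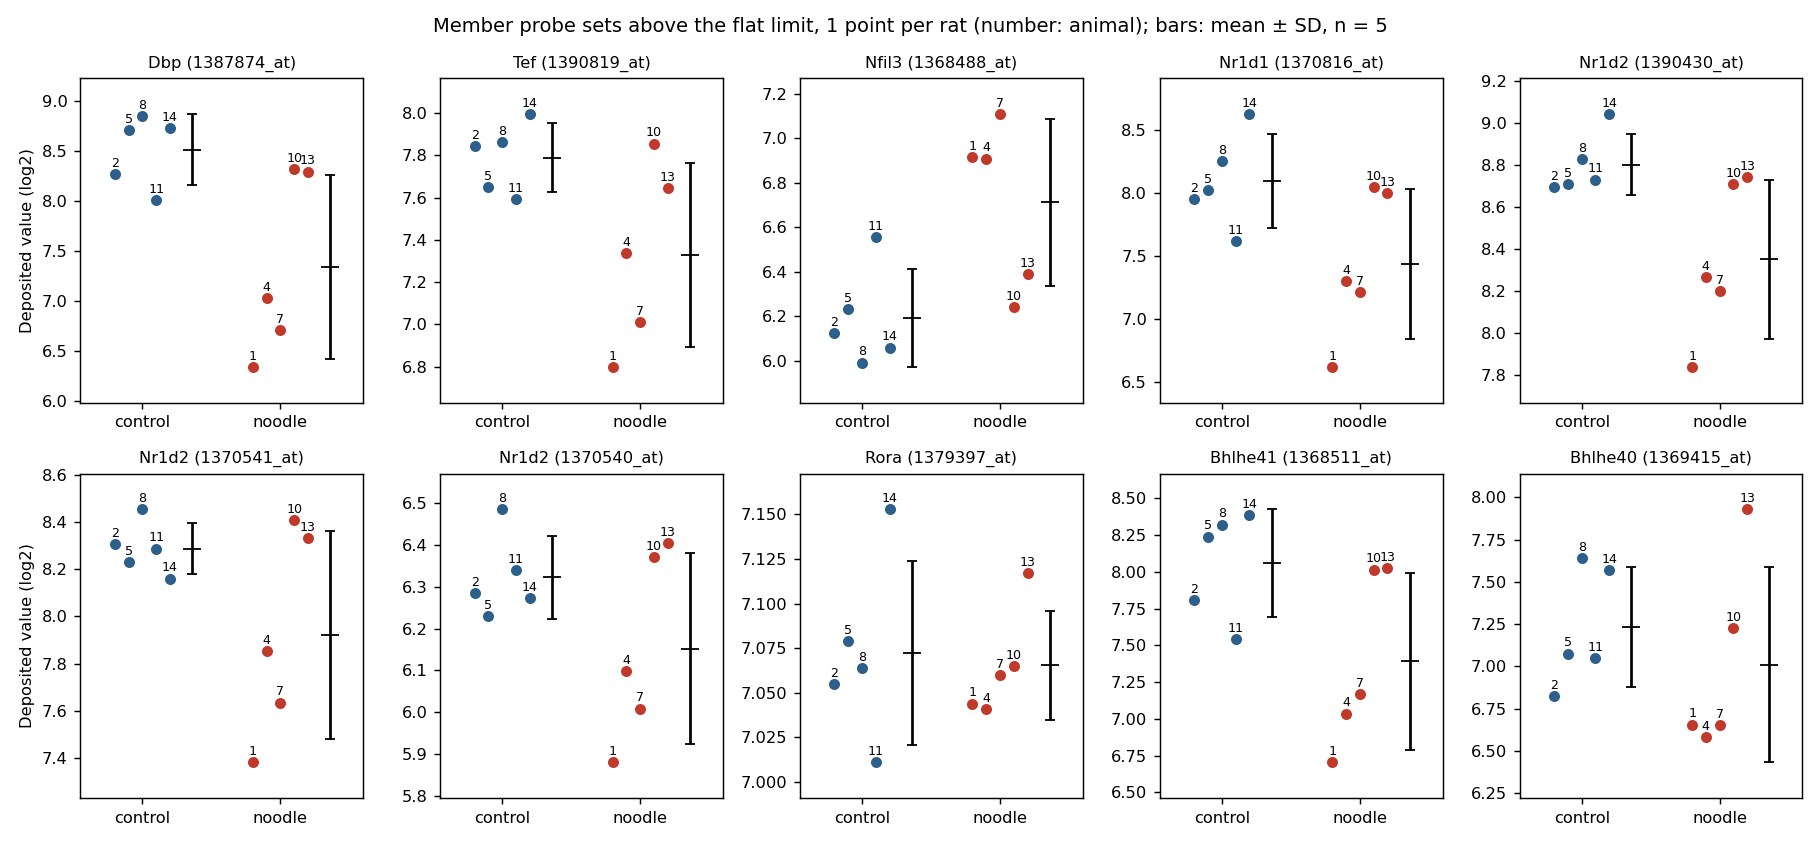
Deposited log2 values (vertical axis) of the 10 variable member probe sets in control and noodle rats, 1 numbered point per rat, with the mean and SD of each diet (n = 5) as a bar. In 8 panels noodle animals 1, 4 and 7 lie below every control rat, for Nfil3 they lie above, and for Rora all noodle rats lie within the control range.

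Dbp, the PAR bZIP factor that is a standard readout of the clock's output arm, had the widest spread of the members (probe set 1387874_at). The noodle rats 1, 4, 7, 10 and 13 read 6.34, 7.03, 6.71, 8.32 and 8.29 on the log2 scale. The control rats 2, 5, 8, 11 and 14 read 8.26, 8.70, 8.85, 8.01 and 8.73. Noodle rats 1, 4 and 7 were below every control, while rats 10 and 13 stood above control rats 2 and 11. The noodle mean was 7.34 ± 0.92 (SD, n = 5) and the control mean 8.51 ± 0.36 (SD, n = 5), a difference of -1.17 ± 0.43 (SE), or 2.26-fold lower in the noodle group. Folds here take the deposited values as base 2, which no source used here states. The noodle rats spanned 3.94-fold and the control rats 1.79-fold. The spread of Dbp within diets ranked 35 of 31042 probe sets. Leaving out 1 rat at a time kept the difference between -1.42 (without noodle animal 10) and -0.92 (without noodle animal 1), and it was -0.77 when arrays were weighted by their quality.

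Tef, a PAR bZIP factor of the same family, had a smaller difference between the diets (1390819_at). Its values in noodle rats 1, 4, 7, 10 and 13 were 6.80, 7.34, 7.01, 7.86 and 7.65. In control rats 2, 5, 8, 11 and 14 they were 7.85, 7.65, 7.86, 7.59 and 7.996. The same 3 noodle rats lay below the controls and the other two lay among them. The difference was -0.46 ± 0.20 (SE, n = 5 per diet), -0.29 with array weights and -0.15 when all Tef probe sets were averaged. That average includes 2 flat probe sets.

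Nfil3, the repressor that competes with the PAR bZIP factors at D-boxes, ran the other way (1368488_at). It read 6.91, 6.91, 7.11, 6.24 and 6.39 in noodle rats 1, 4, 7, 10 and 13. In control rats 2, 5, 8, 11 and 14 it read 6.13, 6.23, 5.99, 6.56 and 6.06. Noodle rats 1, 4 and 7 were above every control, and rats 10 and 13 were within the control range. Nfil3 was higher in the noodle mean by 0.52 ± 0.19 (SE, n = 5 per diet), or 1.43-fold, and between 0.42 and 0.64 with 1 rat left out. Control rat 11, with the highest Nfil3 among the controls, had the lowest Dbp and Tef among them.

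Hlf, the third PAR bZIP gene, was measured by 4 probe sets, all flat. Their means were 6.13, 5.37, 6.66 and 5.99 and no rat lay more than 6.7 units of 0.0001 from them. On that narrow scale 4 of 4 were lower in the noodle mean, and each had its diets overlapping. Deviations of 1374709_at had a Pearson r of 0.77 with Dbp over the 10 arrays and 0.70 within diets. A value as large within diets was seen in 2.45% of the 28435 flat probe sets. The other Hlf probe sets had an r with Dbp of 0.06, 0.26 and 0.44 within diets.

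The flat Tef probe sets were handled the same way. Probe set 1369919_at moved by a few units of 0.0001, yet its r with the variable Tef probe set was 0.88 over the 10 arrays and 0.83 within diets. The other flat one, 1385374_at, had an r of 0.56 with it and 0.38 within diets. The flat Rora probe set, 1380478_at, had an r of 0.42 with the variable one. Of the 7 flat member probe sets, 6 were lower in the noodle mean, against 13679 of all 28435 flat ones. A fold change from a flat probe set has no use here, because what flattened the deposited values is not known.

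**Figure D2:**
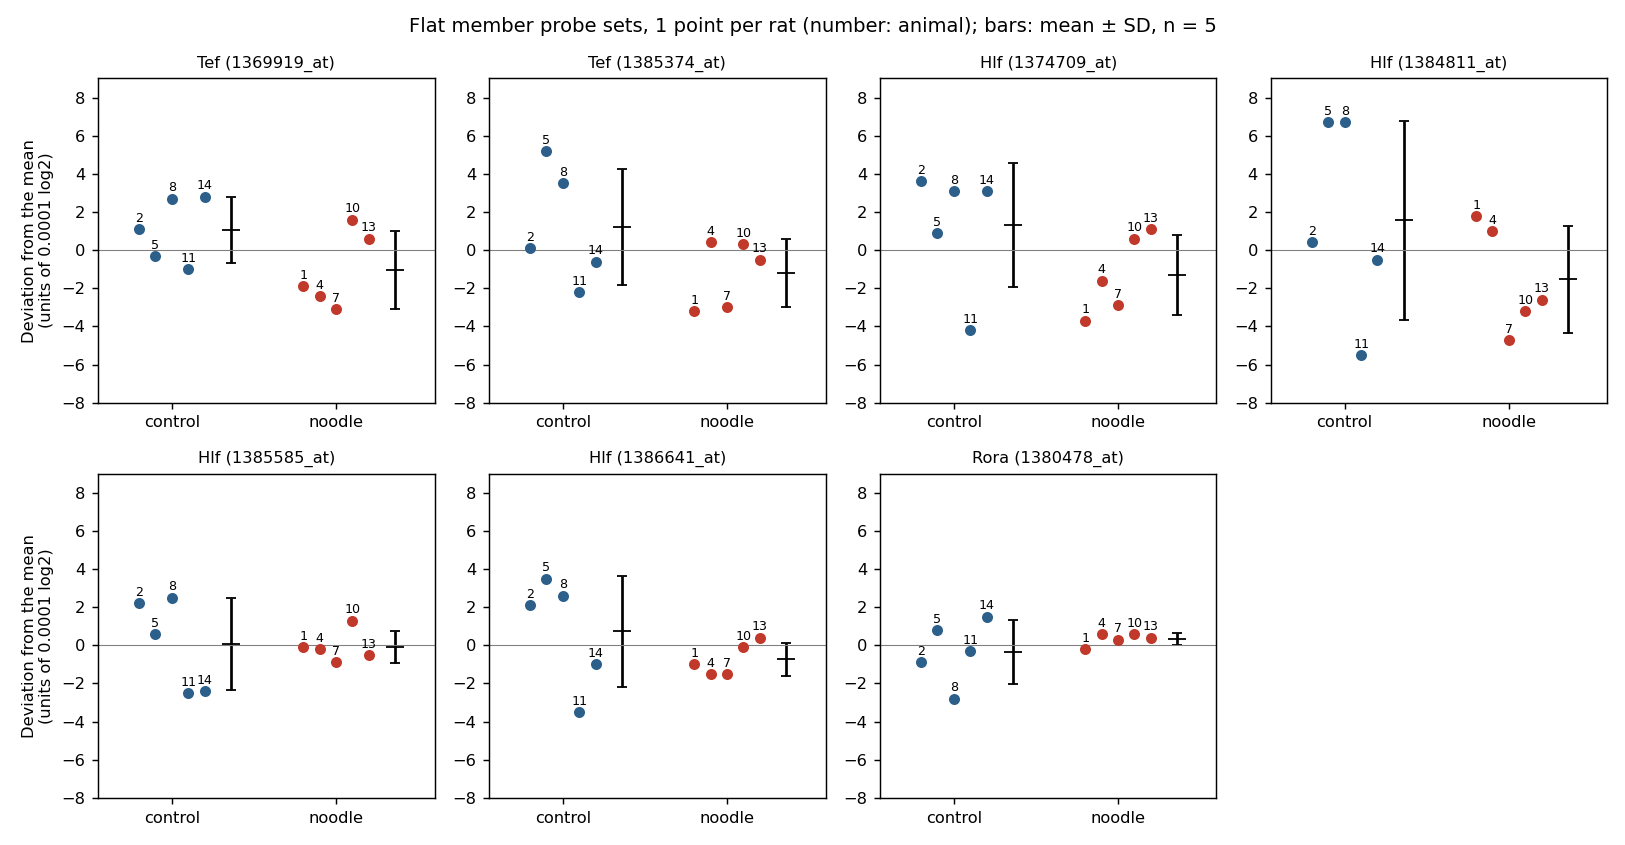
Deviation of each rat from the mean of its probe set, in units of 0.0001 log2 (vertical axis), for the 7 flat member probe sets of Tef, Hlf and Rora in control and noodle rats, with mean and SD (n = 5) as bars. All deviations lie between -5.5 and 6.7 units, and in each panel the diets overlap.

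Nr1d1 encodes REV-ERB alpha, a repressor of Bmal1 (1370816_at). It stood in noodle rats 1, 4, 7, 10 and 13 at 6.62, 7.30, 7.21, 8.04 and 7.997. It stood in control rats 2, 5, 8, 11 and 14 at 7.95, 8.02, 8.25, 7.62 and 8.63. Rats 1, 4 and 7 of the noodle group were again below every control, and control rat 11 was the lowest control. The difference was -0.66 ± 0.31 (SE, n = 5 per diet), or 1.58-fold lower in the noodle group. It was -0.46 without noodle animal 1 and -0.35 with array weights. Nr1d1 overlaps the thyroid receptor gene Thra on the other strand, and the 3 Thra probe sets were all flat.

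Nr1d2, which encodes REV-ERB beta, had 3 variable probe sets that gave the same order of diets. Probe set 1390430_at read 7.84, 8.26, 8.20, 8.71 and 8.74 in noodle rats 1, 4, 7, 10 and 13. Control rats 2, 5, 8, 11 and 14 read 8.69, 8.71, 8.83, 8.73 and 9.04 there. Its difference was -0.45 ± 0.18 (SE, n = 5 per diet). For 1370541_at the difference was -0.37 ± 0.20, or -0.23 without noodle animal 1 and -0.24 with array weights. For 1370540_at it was -0.17 ± 0.11, and -0.10 without noodle animal 1. The 3 probe sets correlated with each other at r from 0.88 to 0.97 over the 10 arrays, and in each the same 3 noodle rats lay below every control. They share the rats and the RNA, so they do not count as replicates of one another.

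Rora encodes the activator that binds the element of the REV-ERB proteins, and its values differed little (1379397_at). Rora in noodle rats 1, 4, 7, 10 and 13 read 7.04, 7.04, 7.06, 7.07 and 7.12. Rora in control rats 2, 5, 8, 11 and 14 read 7.06, 7.08, 7.06, 7.01 and 7.15. All 5 noodle rats lay within the control range. The difference was -0.0072 ± 0.026 (SE, n = 5 per diet), and it turned to 0.013 without control animal 14 and to the same value with array weights. Relative to its size it moved under most settings, down to -0.043 with a term for the 3-prime to 5-prime difference.

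Bhlhe41, also called DEC2, followed the Dbp pattern (1368511_at). Noodle rats 1, 4, 7, 10 and 13 read 6.70, 7.04, 7.17, 8.01 and 8.03. Control rats 2, 5, 8, 11 and 14 read 7.81, 8.24, 8.32, 7.54 and 8.39. The 3 low noodle rats were below control rat 11, itself the lowest control. The difference was -0.67 ± 0.30 (SE, n = 5 per diet), or 1.59-fold lower in the noodle group, with a range of -0.83 to -0.50 when 1 rat was left out and -0.35 with array weights.

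Bhlhe40, also called DEC1, had the difference that moved most between settings apart from Rora (1369415_at). Noodle rats 1, 4, 7, 10 and 13 read 6.66, 6.58, 6.65, 7.23 and 7.93. Control rats 2, 5, 8, 11 and 14 read 6.82, 7.08, 7.64, 7.05 and 7.57. Noodle rats 1, 4 and 7 were below every control, but noodle rat 13 was above every control. The difference was -0.22 ± 0.29 (SE, n = 5 per diet), less than its own error. It was -0.45 without noodle animal 13, and -0.13, -0.12 and -0.13 without noodle animals 1, 4 and 7. Without control animals 8 and 14 in turn it was -0.12 and -0.14. Array weights gave -0.021, a term for the animal number -0.145, and a term for the 3-prime to 5-prime difference of the control probe sets -0.52.

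**Figure D3:**
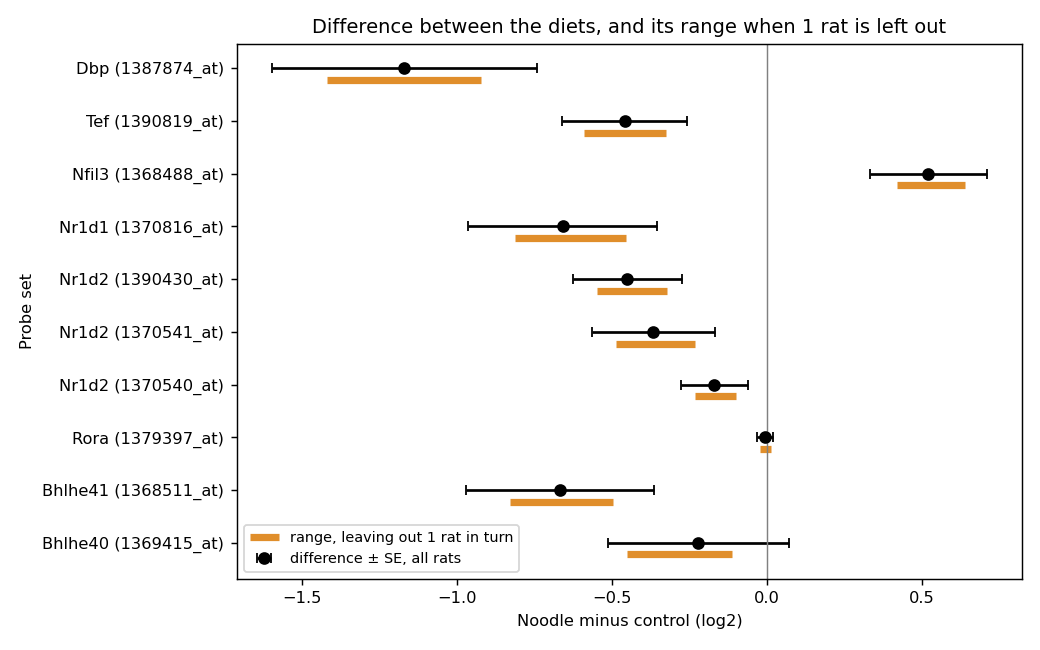
Noodle minus control difference (horizontal axis, log2) of the 10 variable member probe sets, as black points with SE (n = 5 per diet), and its range over the fits that leave out 1 rat as orange bars. Only the bar of Rora crosses 0, and the point of Dbp lies farthest from it at -1.17.

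The joint variation of the genes between rats on the same diet was also described. It is not independent of the choice of genes, since noodle rats 1, 4 and 7 carry both the difference between the diets and much of the spread within the noodle group. Each diet was centred on its own mean, and the 8 genes with a variable probe set were compared over the 10 rats, 1 probe set a gene. Bhlhe41 followed Dbp with a Pearson r of 0.96, Nr1d1 with 0.92, Tef with 0.91 and Nr1d2 with 0.90. Bhlhe40 had an r of 0.81 with Dbp and Rora one of 0.56. Nfil3 stood against Dbp at -0.90. All 7 pairs with Nfil3 were below 0, from -0.90 to -0.55, and the other 21 pairs were above 0. Without Nfil3 and Rora, 15 pairs ran from 0.66 to 0.96.

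**Figure D4:**
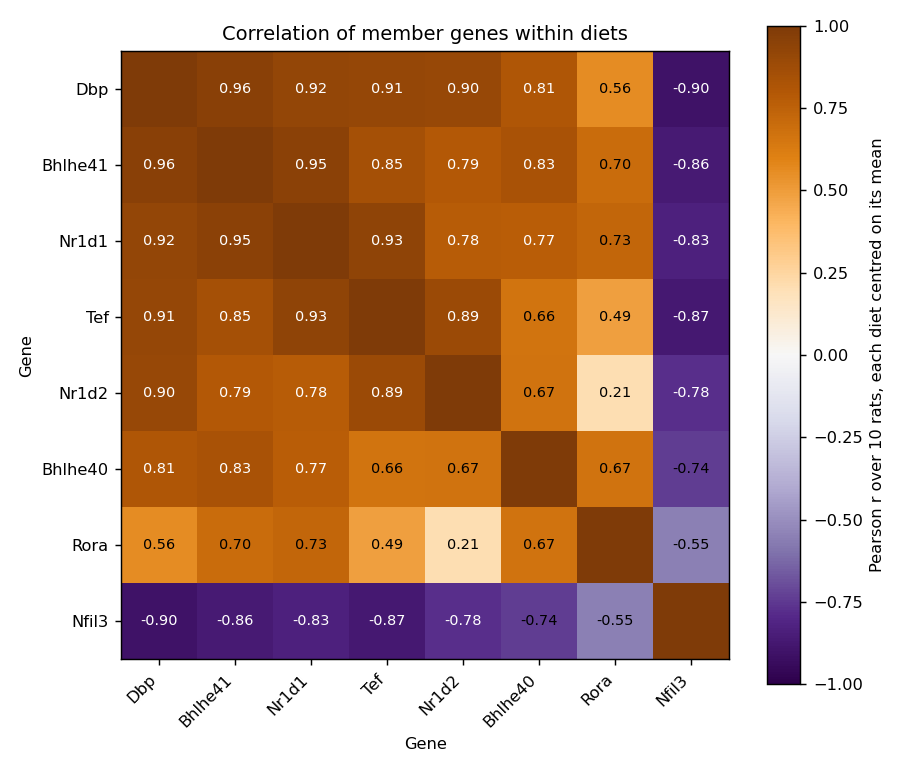
Pearson r of each pair of the 8 member genes with a variable probe set (both axes), over 10 rats after each diet was centred on its mean. Nfil3 is negative with all 7 others, and the weakest positive pair is Nr1d2 with Rora at 0.21.

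These correlations are a description over 10 rats that share a scale and a normalization, and they lean on the split within the noodle group. The median size of r over the 28 pairs was 0.80. Leaving out the 2 rats farthest out in the first gene of each pair gave 0.76, with all 28 signs kept. The rats that remained were not centred again. For the pairs with Dbp the rats left out were noodle rats 10 and 13, so noodle rats 1, 4 and 7 stayed off centre together. The value of 0.76 is therefore no check on the split within the noodle group. Leaving out noodle rats 1, 4 and 7 gave 0.59 over 7 rats, with 25 signs kept. In those 7 rats Dbp had an r of 0.98 with Bhlhe41, 0.80 with Nr1d1 and -0.79 with Nfil3. Its r was lower with Rora (0.64), Bhlhe40 (0.58), Tef (0.50) and Nr1d2 (0.09). The Nr1d2 value is that of probe set 1370541_at alone. Its other probe sets were not compared in those 7 rats, so 0.09 is not read as a result for the gene. Among the 2606 other variable probe sets the median size of r with Dbp was 0.24, and its 95th percentile was 0.65. An r at least as large as that of Bhlhe41 was seen in 0.0767% of them, for Nr1d1 in 0.153% and for Rora in 9.55%. Each share counts the probe set itself and the other members.

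Over the whole table, limma related every probe set to Dbp with the diet in the model, a fit chosen after the data were seen and resting on the same rats. Of 31041 probe sets, 0 passed an adjusted p of 0.05, so percent called was 0, and 1324 had an unadjusted p under 0.05 (145 under quantile normalization). Again a share of 0.05 is expected under that limit without any relation to Dbp. Among the members Bhlhe41 came closest, with a slope of 0.69 ± 0.07 (SE) per log2 unit of Dbp, the smallest p but one in the table and a limma adjusted p of 0.213. Nr1d1 followed with 0.66 ± 0.10 and an adjusted p of 0.643 in limma. The smallest adjusted p of all was that of Bmal1, at 0.0988. When the fit was run again on the 2606 variable probe sets only, its variance prior and its adjustment both changed. There limma called 2, or 0.0767%, namely Bhlhe41 and Bmal1, each with an adjusted p of 0.00709. With 1 rat left out of that fit, both were called in 7 of 10 cases, and neither was called without noodle animals 1, 10 or 13, where limma's lowest adjusted p was 0.102, 0.114 and 0.103. Without noodle animals 1, 4 and 7 together, limma called 0 of the 2606, with an adjusted p of 0.42 for Bhlhe41. Dbp, Bhlhe41 and Bmal1 were picked with earlier results of these data known. Noodle rats 1, 4 and 7 carry both the difference between the diets and much of the spread that this fit used. The 2 calls are therefore a description and no test of these genes.

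The core loop was measured in full, with 8 of 8 genes, of which 6 had a variable probe set, and limma called 0 of them between the diets. Bmal1, the activator, read 7.22, 7.06, 7.14, 6.32 and 6.36 in noodle rats 1, 4, 7, 10 and 13. In control rats 2, 5, 8, 11 and 14 it read 6.13, 6.09, 5.95, 6.21 and 6.01. The diets did not overlap in Bmal1 and in Cry1, where noodle rats 10 and 13 also lay above every control. Over all 2607 variable probe sets, 25, or 0.959%, did not overlap. The core loop list was chosen with earlier results of these data known, so nothing is read from its count. The 3 rats highest in Bmal1 were those lowest in Dbp, and r between the genes was -0.98 over the 10 arrays and within diets. Npas2 and Cry1 had an r with Dbp within diets of -0.65 and -0.89. The period genes had 0.91 for Per1, 0.74 for Per2 and 0.89 for Per3.

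**Figure D5:**
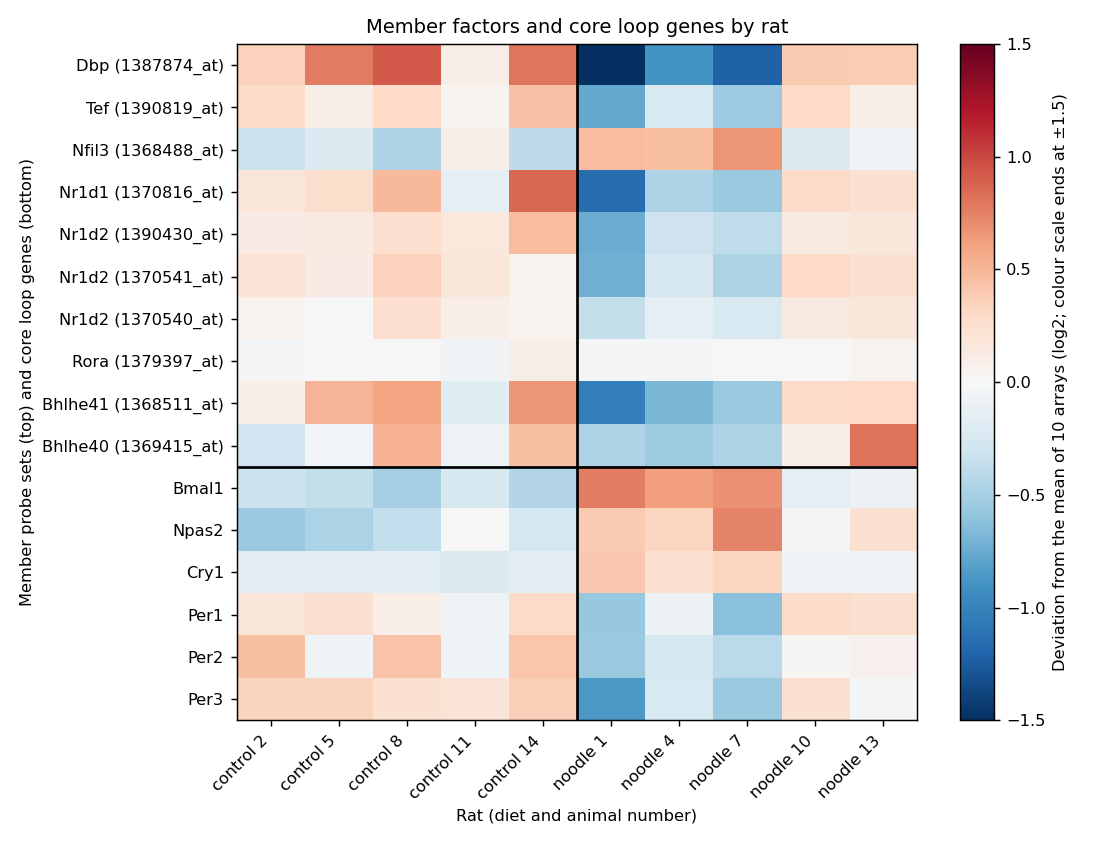
Deviation of each rat (columns, control then noodle) from the mean of 10 arrays, on a log2 colour scale ending at ±1.5, for the 10 variable member probe sets above the line and the 6 variable core loop genes below it. Noodle animals 1, 4 and 7 are low in Dbp and high in Nfil3, Bmal1, Npas2 and Cry1. In Bmal1 and Cry1 all 5 noodle rats lie above the controls, while noodle animals 10 and 13, at 8.32 and 8.29, lie within the control range of Dbp.

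Other genes of the pathway were counted over whole lists. Of 17 clock modifiers, among them kinases, ubiquitin ligase parts and corepressors, 12 were measured and 3 varied, 1 higher and 2 lower in the noodle mean. Of 24 clock-controlled and adipose output genes 23 were measured and 13 varied, 6 higher and 7 lower. Called by limma were 0 genes in both lists. Over the 13 variable output genes the r with Dbp within diets ran from -0.34 for Pdk4 to 0.61 for Tsc22d3, a glucocorticoid target. Nampt, the enzyme of NAD salvage, had an r of 0.34, and the mean of the list had 0.46.

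The genes most like Dbp were sought by Pearson r over the 10 arrays among 1778 other genes with a variable probe set. The highest were Gpr146 at 0.95, Per3 at 0.94, Inhbb at 0.92, Per1 at 0.90 and Dock4 at 0.89. The lowest were Bmal1 at -0.98, Cry1 at -0.94, Dtx4 at -0.91, and Npas2 and Adam19, both at -0.83. For Nr1d1 the same search gave Tbcel, Gpr146, Per3, Pola2 and Per2 at the high end, and Bmal1, Dtx4, Adamts4, Cry1 and Pilra at the low end. Of the 10 genes, 5 were on both lists.

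Markers of other cells and of RNA quality were set beside the members. In the brown or beige adipocyte list 4 of 4 genes were measured and 3 varied, and the list mean had an r with Dbp of 0.75 within diets. Ucp1, the uncoupling protein of brown fat, read 6.73 and 6.43 in noodle rats 10 and 13 and 6.4 in control rat 5, and from 5.45 to 5.95 in the others. Cox8b read 6.98, 6.72 and 6.72 in the same rats and from 5.40 to 6.08 in the rest. Cidea, the other gene of the list that varied, did not set control rat 5 apart. It read 10.3, 10.22 and 10.07 in those rats and from 9.69 to 10.18 in the rest. The list mean ranged from 6.57 to 7.35 in noodle rats and from 6.53 to 7.15 in controls. Macrophage, mesothelial and red blood cell lists had an r with Dbp of -0.32, 0.38 and 0.21 within diets. All 10 macrophage genes were higher in the noodle mean, with list means from 8.86 to 9.42 in noodle rats and from 8.79 to 9.31 in controls. The 5 measured mesothelial genes were lower, with list means from 6.32 to 7.01 in noodle rats and from 6.32 to 7.63 in controls. The 4 measured red blood cell genes were lower too, from 8.31 to 8.73 against 8.52 to 9.06. The adipocyte list had an r with Dbp of 0.50 within diets, with list means from 10.92 to 11.12 in noodle rats and from 10.94 to 11.05 in controls. Of its variable genes Pparg had an r of 0.83, and the others ran from -0.12 for Cfd to 0.32 for Slc2a4. In the brain list 1 gene varied, and the list mean had an r of 0.63 within diets, with means of at most 6.11 in any rat. The endothelial list had an r of -0.10, and no lymphocyte or skeletal muscle gene varied. The part of these cell types in the members' values was not tested.

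The difference between the 3-prime and 5-prime control probe sets of Actb and Gapdh, a sign of RNA length, was 0.84 ± 0.07 in noodle rats and 0.95 ± 0.08 in controls (SD, n = 5). A two-sided exact permutation test over all assignments of rats to diets gave p = 0.0476, where the smallest possible is 0.00794. In the same exact test Actb alone gave p = 0.143 and Gapdh alone p = 0.0476. With 1 rat left out the exact permutation p ran from 0.0159 to 0.103 and was over 0.05 in 7 of 10 cases. The combined measure had an r with Dbp of 0.46 over the 10 arrays and 0.04 within diets. With it as a term in the model, the Dbp difference was -1.13.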

How the data were processed

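The authors deposited 1 table with 1 value per probe set and rat, which was taken as log2 because of the range it covers. No source used here gives the logarithm's base, the background correction, the summarisation or the normalization. Per the labels' protocols, 100 ng of total RNA gave biotin-labelled cRNA. Of 31099 rows, 57 control probe sets were left out. Gene symbols came from the platform annotation: 20826 probe sets have 1 symbol (14217 genes), 436 several and 9780 none. All 17 member symbols matched the RefSeq table, of the GRCr8 assembly. Sequences are RefSeq's.

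The diets were compared on the whole table with limma 3.58.1 in R 4.3.3, two-sided, with Benjamini-Hochberg adjustment and a threshold of 0.05. Differences of the members carry limma's SE. Each array is 1 rat. The members and all gene lists were chosen with earlier results of these data known. Named are all members, the variable core loop genes, the 5 genes with the highest and the 5 with the lowest r with Dbp or Nr1d1, and list genes used as examples, which were chosen after their values were seen. A planned exact permutation test of the pairs of member genes, adjusted over those pairs, was run. Its p-values are not given, because they are adjusted over the members alone. The limma fit against Dbp took its place after the data and that test had been seen. Where a gene had several variable probe sets, correlations used the one with the highest SD.

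The alternatives were quantile normalization, median centring, filters on the dimmest 20% and 50%, a floor at the 20th percentile, other variance priors, array weights, 3 covariates, averaging all probe sets of a gene and each rat left out. The fits were checked on simulated data.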

Additional observations from a re-analysis of the deposited data

Results flagged for a closer look

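Among 34 groups of 5 rats, over the variable members, the core loop genes and the 3-prime to 5-prime difference, 1 value stood far from the rest of its diet. Cry1 read 6.14 in control animal 11, against 6.19 to 6.2 in the other controls. Chance gives about 1 in 20 such groups, or 1.7 of 34. The same rat had the lowest Dbp, Tef, Nr1d1, Rora and Bhlhe41 and the highest Nfil3 among the controls. In Bhlhe40 and in each Nr1d2 probe set another control rat was lower. Cry1 had an r of -0.94 with Dbp over the 10 arrays, whereas this rat was the lowest control in both.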

How the results depend on the processing

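The filters on the dimmest probe sets and the other variance priors cannot change a difference, and they repeated the main value for every gene. They are therefore no check on its direction. With these settings counted, 163 of 165 differences across the 8 genes kept their direction. Both exceptions were Rora, at 0.013 with array weights and from -0.0226 to 0.013 with 1 rat left out, the latter without control animal 14. The count of probe sets called between the diets stayed at 0, except that it was 1 without control animal 14 (range 0 to 1). The median size of r within diets moved from 0.80 to 0.84 with the 3-prime to 5-prime term. With the animal number as a term it was 0.71, and as Spearman rho 0.77. It was 0.76 without the 2 rats farthest out in the first gene of a pair, the others not being centred again. Without noodle animals 1, 4 and 7 (chosen after seeing the data) it was 0.59. With 1 rat left out it ran from 0.74 to 0.84. Probe sets following Dbp numbered 0, or 2 over variable probe sets only, where leaving out 1 rat gave 0 to 5 and leaving out noodle animals 1, 4 and 7 gave 0. Over all probe sets it was 0 to 1 with 1 rat left out. The 1 call came without control animal 8 and was a probe set without a symbol. The 3-prime to 5-prime difference was -0.11 for Actb alone and -0.115 for Gapdh alone, and ran from -0.144 to -0.0848 with 1 rat left out, where 7 of 10 exact permutation p-values were over 0.05. Of the 10 genes most like Dbp, 6 remained within diets. No paired analysis was possible because no animal number occurs in both diets and the feeding pairs are not named, so a pairing would have to be guessed. No source gives the time of tissue collection, most of the table is flat, and 5 rats per diet set the errors.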
